A study of Rattus norvegicus with 32 samples.

Results

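Reactive astrocyte genes were examined in brain tissue of rats given methamphetamine (METH) or saline. The 8 genes Gfap, Vim, Serpina3n, Lcn2, Cd44, Osmr, Stat3 and Timp1 were looked up by gene name among the 28914 genes of the deposited count tables. Of these, 7 were found and no row was named Serpina3n, so no level is given for it, and its neighbours in the Serpina3 family were not taken in its place. The rats were adult male Sprague-Dawley rats with no genetic change. They received 4 intraperitoneal injections of METH (10 mg/kg) or of saline, spaced 2 h apart, and the brains were collected 24 h after the final one. RNA came from the nucleus accumbens (NAc), the dentate gyrus (DG), the cornu ammonis of the hippocampus (CA) and the subventricular zone (SVZ). Each region gave 4 saline (Sal) and 4 METH samples, so that there were 32, and a name such as NAc METH 3 gives the region, the treatment and the replicate. The samples are pieces of tissue with many cell types, so fewer cells of a type and less RNA per cell cannot be told apart.

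Astrocytes answer injury, inflammation and toxic stress with a change of state called reactive gliosis. They thicken their processes, build more of the intermediate filament proteins GFAP and vimentin, and secrete proteins that act on neighbouring cells and on the matrix. Cytokines of the interleukin-6 family bind receptors that share the subunit gp130 (Il6st), Janus kinases then phosphorylate STAT3, and STAT3 drives Gfap and other genes of the response, while SOCS proteins switch the signal off. Gain of GFAP in the striatum is a widely used sign of METH neurotoxicity.

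Libraries held 11094002 to 21869773 counted reads. Levels are given in CPM, counts per 1000000 reads after upper-quartile scaling, and 1 read was worth 0.0459 to 0.0940 CPM. Some libraries stood apart. The summed level of 8 markers of striatal medium spiny neurons was 1819.8 CPM in DG Sal 3 against 119 to 412 CPM in the other DG samples, and 282 CPM in NAc METH 3 against 1579.5 to 7595 CPM in the other NAc samples. It was also low in SVZ Sal 1 (283 CPM) and SVZ METH 2 (189 CPM), where the other SVZ samples had 883 to 5701 CPM, and SVZ Sal 1 differed from the saline samples of its region by the largest chi-square per gene of all pairs within groups (183 to 192). The sum of 7 choroid plexus markers was 2098 to 8343 CPM in DG Sal 4, DG METH 3, CA Sal 2 and SVZ METH 3, and 1.96 to 389 CPM in all others. The file headers give DG Sal 1 and 2 the library numbers that METH samples carry in the NAc and CA, and give DG METH 1 and 2 those of saline samples. The 4 SVZ METH libraries carry only 2 numbers between them. SVZ METH 2 and 4 and SVZ Sal 1 and 2 have the suffix EXTRA in their library names. The same-numbered METH pairs had a chi-square per gene of 134 (METH 1 and 2) and 115 (METH 3 and 4). METH 2 and 4, with different numbers, had 16.5, the lowest of all pairs within groups. The sum of 6 oligodendrocyte markers was 9554 and 8820 CPM in METH 1 and 3. It was 26040 and 27729 CPM in METH 2 and 4, and 18914 and 3915 CPM in Sal 1 and 2. Usp9y, a gene of the Y chromosome, had 21 to 50 reads in the SVZ saline libraries, 0 or 1 read in the SVZ METH libraries and 0 to 87 reads in the other regions, although all rats are labelled male. Samples were kept in the groups of their labels.

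Per kilobase of exon, Gfap was the most abundant of the 7 genes, with a median level over the 32 samples of 158 CPM per kb. Vim followed with a median of 23.0 CPM per kb and Stat3 with 12.7 CPM per kb. Timp1 (3.98 CPM per kb) and Cd44 (2.55 CPM per kb) were lower, and Lcn2 (0.553 CPM per kb) and Osmr (0.349 CPM per kb) lowest. Lcn2 was counted with 1 to 70 reads per library and Osmr with 8 to 36 reads, while Gfap had 2599 to 29090 reads, so counting error was far smaller for Gfap. The spread between samples comes on top of it and is given by the SE of each comparison.

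**Figure D1:**
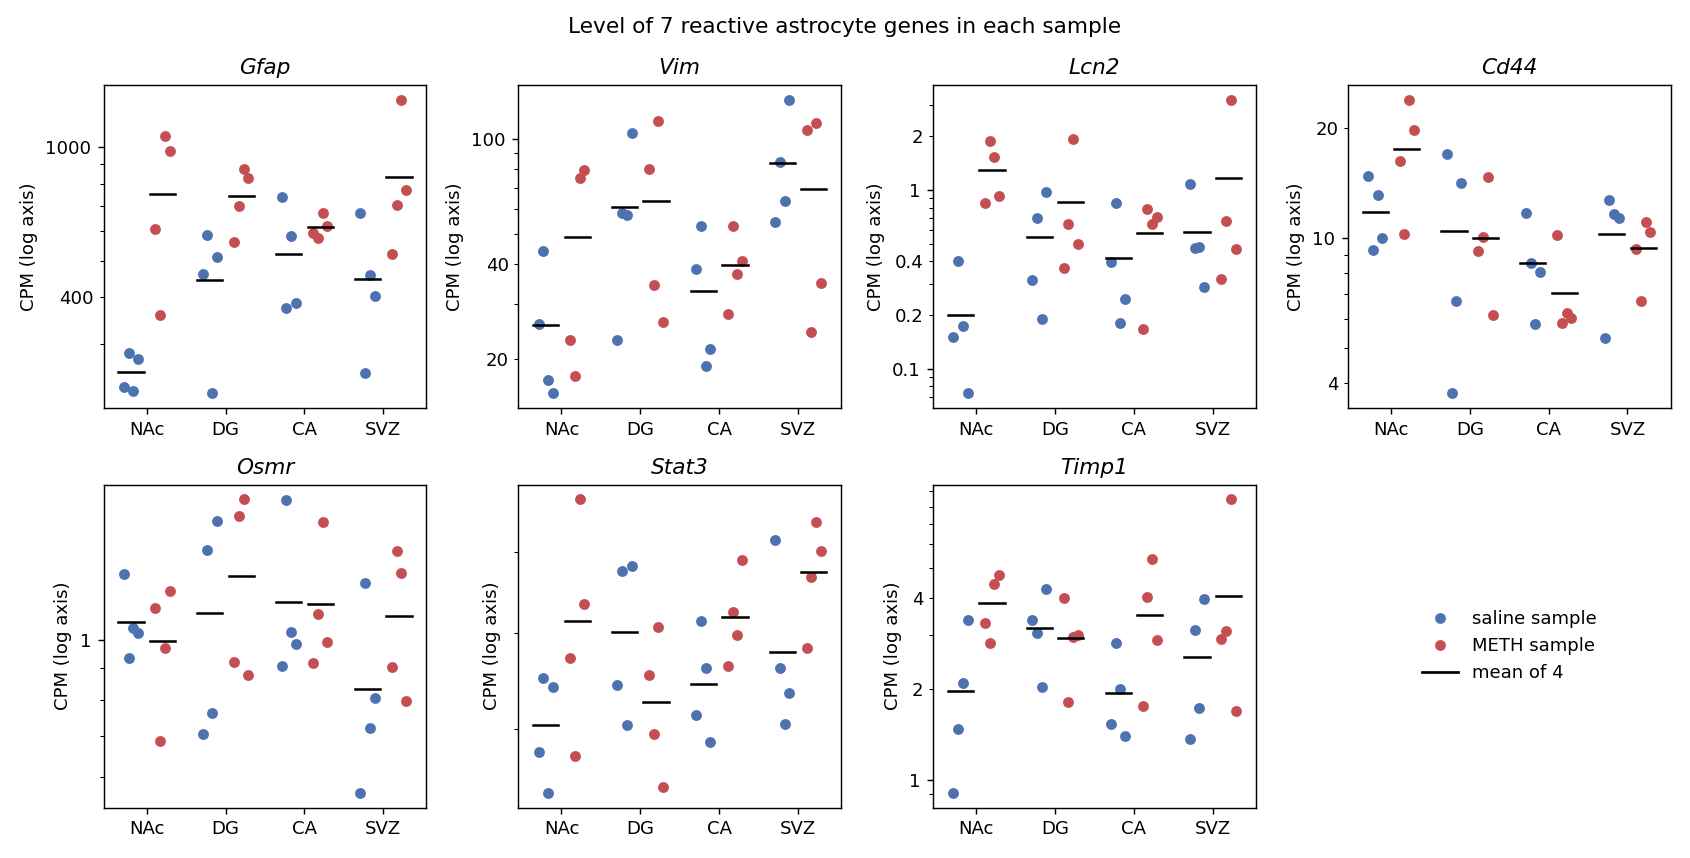
Level of each of the 7 genes in every sample, in CPM on a log axis, by region. Points are samples (blue saline, red METH) and black lines are means of 4. Saline and METH samples are fully apart only for Gfap and Lcn2 in the NAc, where 1.35% of the genes tested were higher in METH without overlap. Lcn2 did not pass the low-count filter there and is not among the genes tested.

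The promoters of all 8 genes were found in RefSeq (GRCr8), each reaching from 250 bases before the gene start to 50 after it. They were searched for the STAT site TTCNNNGAA and for the AP-1 site TGANTCA, each of which is its own reverse complement. Sites outside this window were not searched, so a gene without a match here may have such sites elsewhere. A STAT match was present in 1 of the 8, Serpina3n (123 bases before the start), beside 8.87% of 33469 promoters. An AP-1 match was present in 1 of the 8, Osmr (33 bases before the start), beside 7.33%. The 250 bases before the start are printed 5′ to 3′ for these, with the match in capitals, and for Gfap and Lcn2, the genes with the clearest METH differences described here, whose windows hold neither motif. They lie at chr6:129088142-129088391 (plus strand), chr2:57688562-57688811, chr10:88361662-88361911 and chr3:36081781-36082030 (all minus strand), in the order printed.
Serpina3n: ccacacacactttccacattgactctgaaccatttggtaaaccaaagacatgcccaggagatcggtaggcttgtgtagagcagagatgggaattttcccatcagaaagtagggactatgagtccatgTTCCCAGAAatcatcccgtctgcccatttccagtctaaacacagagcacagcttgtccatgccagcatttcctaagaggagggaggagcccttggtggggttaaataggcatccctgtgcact
Osmr: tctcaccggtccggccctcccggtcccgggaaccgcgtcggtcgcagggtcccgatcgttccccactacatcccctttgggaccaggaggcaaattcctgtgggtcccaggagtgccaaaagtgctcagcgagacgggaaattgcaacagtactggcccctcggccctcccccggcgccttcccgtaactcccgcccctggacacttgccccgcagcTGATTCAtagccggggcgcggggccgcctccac
Gfap: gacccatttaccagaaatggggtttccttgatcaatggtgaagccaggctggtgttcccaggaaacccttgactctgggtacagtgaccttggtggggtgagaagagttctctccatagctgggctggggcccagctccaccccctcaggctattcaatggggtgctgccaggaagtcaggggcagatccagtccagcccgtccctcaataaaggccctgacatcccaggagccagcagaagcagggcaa
Lcn2: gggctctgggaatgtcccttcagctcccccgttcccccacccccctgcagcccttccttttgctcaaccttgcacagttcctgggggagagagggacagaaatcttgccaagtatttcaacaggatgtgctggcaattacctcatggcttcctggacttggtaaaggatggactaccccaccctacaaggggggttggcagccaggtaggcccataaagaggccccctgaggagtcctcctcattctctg

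METH and saline samples were compared in each region with edgeR, and a gene passed with an FDR (its quasi-likelihood p after Benjamini-Hochberg adjustment) under 0.01 together with more than a 1.5-fold change. Of the members tested (6 in the NAc, DG and CA, 7 in the SVZ) 0 passed, as did 0% of all genes in each region. DESeq2 passed 1 member, Gfap in the NAc, and 0 members in the other regions. Of all genes it passed 3 of 22589 in the NAc, 175 of 22775 in the DG, 10 of 22471 in the CA and 2 of 23008 in the SVZ. At an unadjusted p under 0.05, 2 of 6 members were higher with METH in the NAc (Gfap and Timp1), beside 2.42% of 14771 genes. In the DG it was 1 of 6 (Gfap, beside 6.35% of all genes), in the CA 1 of 6 (Timp1, beside 4.37%) and in the SVZ 1 of 7 (Gfap, beside 1.19%). At that level 0 members were lower in any region, beside 0.968%, 6.42%, 2.79% and 1.39% of all genes in the NAc, DG, CA and SVZ. The median log2 fold change of the tested members was 0.77 in the NAc, 0.0037 in the DG, 0.21 in the CA and 0.40 in the SVZ, where the medians over all genes were 0.029, -0.011, 0.0051 and 0.016.

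**Figure D2:**
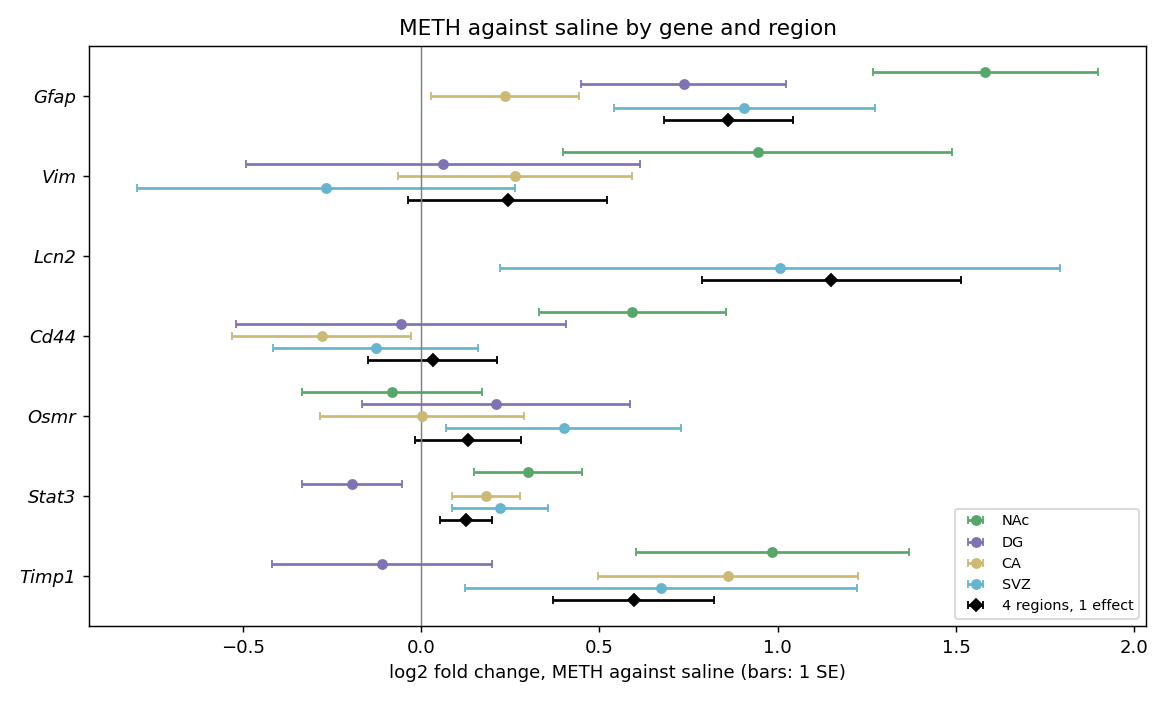
Log2 fold change of METH against saline (x axis) for each gene, by region (circles) and over the 4 regions (black diamonds), with bars of 1 SE. Gfap lies above 0 in each region, from 0.24 in the CA to 1.58 in the NAc, and Lcn2 was tested only in the SVZ and over the 4 regions.

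Gfap (rn6, chromosome 10 from 90990762 to 90999506, minus strand) encodes the filament protein of the astrocyte cytoskeleton. In the NAc it was at 231, 284, 226 and 275 CPM in the saline samples and at 606, 359, 1069 and 979 CPM in the METH samples. All METH samples lay above all saline samples, which was true of 1.35% of the genes tested there. The log2 fold change was 1.58 (SE 0.32, edgeR quasi-likelihood FDR 0.999). DESeq2 gave 1.54 with an FDR of 0.00911, and the FDR over the 16 alternatives ran from this value to 1.00. The prefix of the library name in the file headers was taken as the sequencing run, although it is not labelled as such. NAc METH 3 and 4 shared a prefix that no saline NAc sample had. In the run with 2 NAc samples of each treatment, the means of Gfap were 250.5 CPM in saline and 483 CPM in METH samples. With the run as a covariate the log2 fold change was 0.96 (SE 0.27), and without NAc METH 3 it was 1.36.

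In the DG, Gfap was at 459.9, 584, 223 and 512 CPM in the saline samples and at 562, 699, 874 and 827 CPM in the METH samples. DG METH 1 lay below DG Sal 2, and DG Sal 3, the library with striatal markers, was the lowest of all. The log2 fold change was 0.74 (SE 0.29, edgeR quasi-likelihood FDR 0.345). It was 0.52 without DG Sal 3 and 1.20 without the 4 libraries of crossed numbers. With the run as a covariate it was 1.49, a value that rests on DG Sal 3. This was the only saline sample in the only DG run with both treatments, beside DG METH 1 and 2. In the SVZ, Gfap was at 669, 252, 458 and 404 CPM in the saline samples and at 521, 701, 1336 and 770.2 CPM in the METH samples. SVZ METH 1 lay below SVZ Sal 1, and SVZ METH 3, the library with the most choroid plexus RNA, was far above the rest. The log2 fold change was 0.91 (SE 0.37, edgeR quasi-likelihood FDR 0.979). It was 0.58 without SVZ METH 3 and 1.16 without SVZ Sal 1, the saline sample with the most Gfap and few striatal markers. Its unadjusted quasi-likelihood p from edgeR, 0.0379, was 0.0679 with the METH libraries of the same number summed and 0.0615 with the replicate number as a block, so Gfap in the SVZ was no longer under 0.05 in these fits. With the name suffix EXTRA as a covariate, a choice made after seeing the data, the SVZ log2 fold change was 0.90 (SE 0.38). The CA had levels of 736, 374, 583 and 386 CPM in saline and of 593, 574, 668 and 617 CPM in METH samples. CA Sal 1 was the highest there, the METH samples lay inside the saline range, and the log2 fold change was 0.24 (SE 0.21, edgeR quasi-likelihood FDR 0.804). Saline and METH groups overlapped for Gfap, as for all 7 members, in the DG, CA and SVZ, where 3.93%, 2.58% and 0.841% of tested genes were higher in METH without overlap.

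A single METH effect was then fitted for all 32 samples with the region as a second term. Gfap had a log2 fold change of 0.86 (SE 0.18) over the 4 regions, and its edgeR quasi-likelihood FDR was 0.181 over 15652 genes. The FDR was 0.0330 with 2 RUVr factors (factors of unwanted variation estimated from residuals) and 0.0186 with DESeq2, in a range up to 0.968 over 44 alternatives. Library numbers recur in the NAc, DG and CA, so samples of different regions may come from the same rats, which this fit treats as independent. With the library number as a block in limma-voom, Gfap had 0.85 (SE 0.18, FDR 0.206), Lcn2 0.99 (SE 0.38, FDR 0.651) and Timp1 0.57 (SE 0.23, FDR 0.653). The blocks of the crossed DG numbers hold samples of both treatments. If the labels hold, the samples of such a block cannot all come from the same rat. Of the 7 members, 0 passed, as did 0% of all genes, and DESeq2 likewise passed 0. At an unadjusted p under 0.05, 3 of 7 members (Gfap, Lcn2 and Timp1) were higher with METH, beside 4.29% of all genes, and 0 were lower, beside 3.25%. All 7 had a fitted log2 fold change above 0, with a median of 0.24 against 0.0085 over all genes. Over the 32 samples Gfap had r = -0.43 with the summed striatal markers, and -0.40 after subtraction of group means. With the choroid plexus sum it had 0.37 and 0.40. All 8 striatal markers had a log2 fold change below 0 over the 4 regions (median -0.88). In the NAc 7 were below 0, in the DG and SVZ 8, and in the CA 2. The part of tissue content in the METH values of Gfap was not tested.

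Gfap was also set against the summed level of 13 homeostatic astrocyte markers in the same sample, among them Aqp4, the water channel, and Slc1a3, a glutamate transporter. In the NAc it came to 4.45% ± 0.331 of that sum in saline and to 11.2% ± 4.25 in METH samples (SD, n = 4), and every METH sample lay above every saline sample. Gfap alone was already apart there, so this is not a separate observation, and no share over other genes was computed for such a ratio. The percentages were 7.95 ± 3.04 and 12.5 ± 2.72 in the DG, 8.92 ± 2.23 and 9.55 ± 0.539 in the CA, and 7.91 ± 2.78 and 15.3 ± 7.51 in the SVZ (saline and METH, SD, n = 4). The treatments overlapped in these 3 regions. The marker sum itself was 5699 ± 307 CPM in saline and 6637 ± 825 CPM in METH samples of the NAc (SD, n = 4). Of the 13 markers, 0 passed in any region or over the 4 regions. Over the 4 regions 3 of 13 were higher at an unadjusted p under 0.05, beside 4.29% of all genes, with log2 fold changes of 0.26 for Aqp4, 0.21 for Slc1a3 and 0.25 for Aldh1l1.

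**Figure D3:**
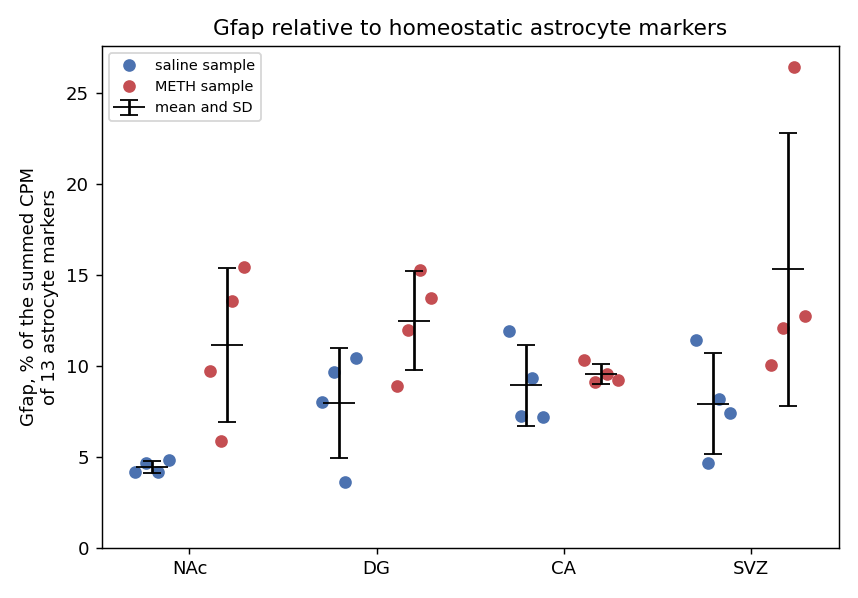
Gfap as a percentage of the summed CPM of 13 homeostatic astrocyte markers in each sample, with the mean and SD of 4. NAc saline samples lie between 4.17% and 4.82%, NAc METH samples between 5.89% and 15.5%.

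Vim (rn6, chromosome 17 from 80882666 to 80891212, plus strand) encodes vimentin, the filament protein of immature and reactive astrocytes, which endothelial, ependymal and connective tissue cells make as well. In the NAc it was at 25.8, 44.2, 17.2 and 15.6 CPM in the saline samples and at 23.0, 17.7, 75.2 and 79.6 CPM in the METH samples. NAc METH 3 and 4, the pair from the run without saline NAc samples, were above all others, and NAc METH 1 and 2 lay within the saline range. For Vim the NAc had a log2 fold change of 0.94 (SE 0.55), the DG of 0.063 (SE 0.55), the CA of 0.26 (SE 0.33) and the SVZ of -0.27 (SE 0.53). Vim was at 106 and 112 CPM in SVZ METH 1 and 3. It was at 24.3 and 34.8 CPM in SVZ METH 2 and 4, the METH libraries with the suffix EXTRA. SVZ Sal 1 and 2, also with that suffix, had 54.3 and 84.2 CPM, and SVZ Sal 3 and 4 had 63.6 and 133 CPM. Over the 32 samples Vim had r = 0.69 with the summed ependymal markers, and r = 0.65 once group means were subtracted, in libraries that share dissections and runs. The part of ependymal RNA in the values of Vim was not tested. Of 12 other filament and matrix genes, 2 were higher over the 4 regions at an unadjusted p under 0.05, Vcan (0.24, SE 0.11), a matrix proteoglycan, and Des (0.32, SE 0.16), the muscle filament desmin of mural cells, and 0 were lower, beside 4.29% of all genes that were higher and 3.25% that were lower.

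Osmr (rn6, chromosome 2 from 56110777 to 56151531, minus strand) encodes the oncostatin M receptor, which pairs with gp130. Its level was 0.566 to 1.69 CPM over all samples, and its log2 fold change was -0.081 (NAc, SE 0.25), 0.21 (DG, SE 0.38), 0.0028 (CA, SE 0.29) and 0.40 (SVZ, SE 0.33). Cd44 (rn6, chromosome 3 from 92696313 to 92783658, minus strand) encodes a receptor for the matrix polymer hyaluronan. In the NAc it was at 14.8, 9.27, 13.1 and 9.97 CPM in saline and at 16.3, 10.2, 23.9 and 19.8 CPM in METH samples. NAc METH 2 lay among the saline samples, and the log2 fold change was 0.59 (SE 0.26). Elsewhere Cd44 had values of -0.055 (DG, SE 0.46), -0.28 (CA, SE 0.25) and -0.13 (SVZ, SE 0.29).

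Stat3 (rn6, chromosome 10 from 88790408 to 88842233, minus strand) encodes the transcription factor at the end of the gp130 pathway, whose activity depends on phosphorylation that mRNA does not show. Its level stayed between 44.3 and 77.3 CPM in all samples. In the NAc it was at 47.9, 55.05, 44.3 and 54.2 CPM in saline and at 57.2, 47.6, 77.3 and 63.4 CPM in METH samples. Here 3 of 4 METH samples lay above all saline samples, and NAc METH 2 lay among them. Stat3 had a log2 fold change of 0.30 here (SE 0.15), against -0.19 for the DG (SE 0.14), 0.18 for the CA (SE 0.095) and 0.22 for the SVZ (SE 0.13). Over the 32 samples Stat3 had r = 0.52 with the summed choroid plexus markers and -0.24 with the striatal ones. After subtraction of group means these were 0.59 and -0.48. The part of tissue content in the values of Stat3 was not tested.

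Other genes of the gp130 pathway came from 3 lists. Of 8 ligands, 4 could be tested over the 4 regions and 0 had an unadjusted p under 0.05. Il6, Il11, Lif and Osm, cytokines that act through gp130, had at most 4, 7, 15 and 10 reads in a library, too few for the test. Cntf, the ciliary neurotrophic factor of astrocytes, had a log2 fold change of 0.25 (SE 0.15) and Ctf1, cardiotrophin, of 0.28 (SE 0.16). Of 8 receptors and kinases, 1 had an unadjusted p under 0.05 (Tyk2, a Janus kinase, 0.14, SE 0.060), and Il6st was at 0.083 (SE 0.070). Il6r, the receptor of interleukin-6, differed most in the DG, by 0.80 (SE 0.21, edgeR quasi-likelihood FDR 0.214). Of 10 feedback and target genes of STAT3, 9 were tested over the 4 regions and 0 had an unadjusted p under 0.05. Socs3, the main brake on the pathway, was at 0.12 (SE 0.21) with 3 to 17 reads per library, and Junb, which neuronal activity also induces, at -0.40 (SE 0.22).

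**Figure D4:**
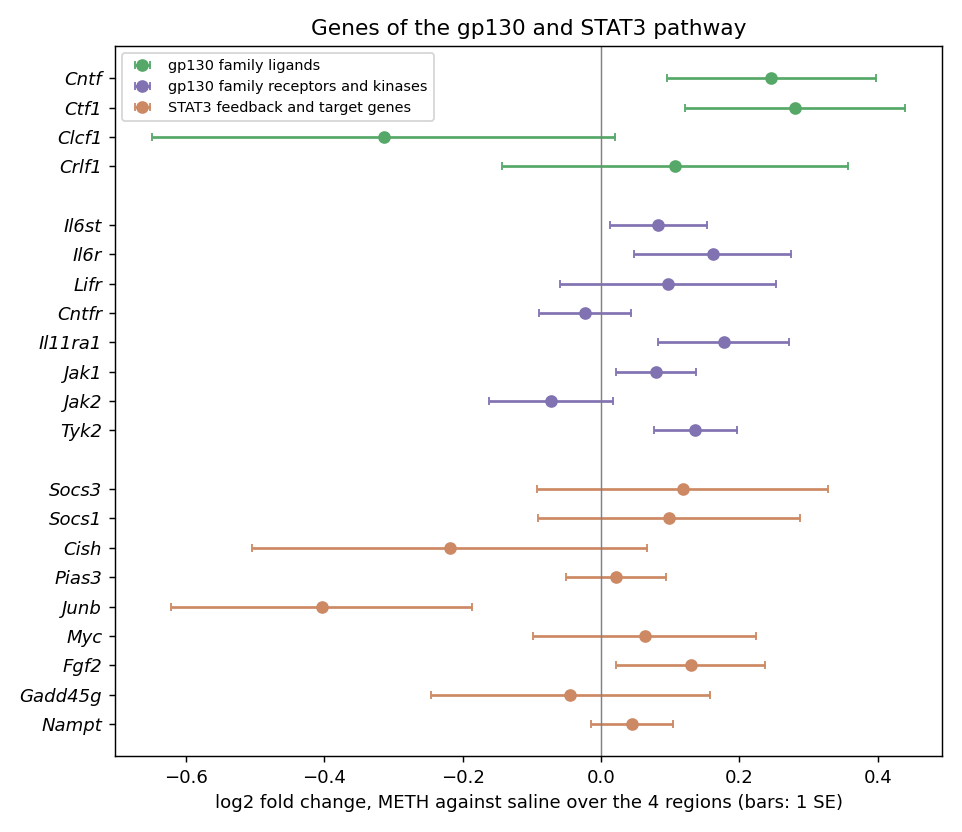
Log2 fold change of METH against saline over the 4 regions (x axis) with bars of 1 SE, for the tested ligands, receptors and kinases of the gp130 family and for STAT3 feedback and target genes. The values run from -0.40 (Junb) to 0.28 (Ctf1).

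Lcn2 (rn6, chromosome 3 from 11414186 to 11417546, minus strand) encodes lipocalin 2, a secreted carrier of iron-binding siderophores that reactive astrocytes release. In the NAc it was at 0.151, 0.400, 0.174 and 0.0733 CPM in the saline samples (2, 6, 2 and 1 reads) and at 0.846, 1.89, 1.53 and 0.935 CPM in the METH samples (9, 22, 22 and 14 reads). All METH samples lay above all saline samples, as for 1.35% of the genes tested in the NAc. Lcn2 was not among those tested, so no share is given for genes at its level. The level over the pooled reads was 6.30 times as high with METH, with an exact 95% interval from 3.30 to 13.2 that covers counting error only. Lcn2 did not pass the low-count filter in the NAc, DG and CA. Without that filter its log2 fold change in the NAc was 2.61 (SE 0.51, edgeR quasi-likelihood FDR 0.928), and DESeq2 gave an FDR of 0.0561, the lowest of 9 alternatives that ran up to 1.00. The pooled ratio was 1.84 (1.15 to 2.99) in the DG, 1.46 (0.832 to 2.59) in the CA and 2.04 (1.43 to 2.94) in the SVZ, again with counting error only. In the DG, 41 of the 64 METH reads came from DG METH 3, a library rich in choroid plexus RNA. The other DG METH samples (0.369, 0.650 and 0.502 CPM) lay within the saline range of 0.191 to 0.983 CPM. Over the 4 regions the log2 fold change was 1.15 (SE 0.36, edgeR quasi-likelihood FDR 0.521).

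Lcn2 also moved with choroid plexus RNA. In 7 of 8 groups the library with the highest sum of choroid plexus markers was the one with the most Lcn2, NAc METH being the exception. SVZ METH 3 had 3.22 CPM, the other SVZ METH samples 0.319, 0.672 and 0.469 CPM, and the SVZ saline samples 1.08, 0.475, 0.481 and 0.288 CPM. In the SVZ the log2 fold change of Lcn2 was 1.01 (SE 0.78) with all samples and -0.26 (SE 0.53) without SVZ METH 3. Over the 32 samples Lcn2 had r = 0.65 with the marker sum, and r = 0.84 after subtraction of group means. With the summed blood cell markers it had r = 0.65 and 0.60. In the NAc, where the treatments were apart, the choroid plexus sum was 2.03 to 19.7 CPM. It was 7.22 ± 6.09 CPM in saline and 9.97 ± 6.88 CPM in METH samples (SD, n = 4). Of the 7 markers, 2 could be tested there and both were higher with METH, with a median log2 fold change of 0.79. At an unadjusted p under 0.05 1 of these 2 was higher, beside 2.42% of all genes. The part of choroid plexus RNA in the NAc values of Lcn2 was not tested. Otx2, a defining gene of that tissue, had 0 reads in all 8 NAc libraries, but also in all 8 CA libraries, CA Sal 2 with its sum of 2186 CPM included. Without the 4 libraries richest in choroid plexus RNA, a choice made after seeing the data, the value of Lcn2 over the 4 regions was 0.96 (SE 0.34).

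**Figure D5:**
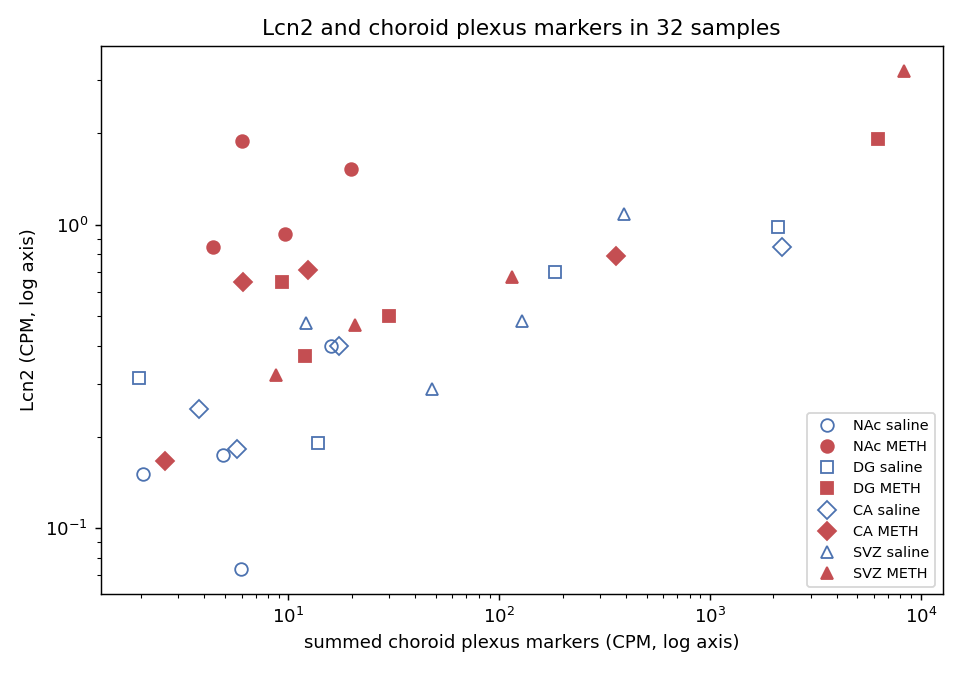
Lcn2 (y axis, CPM) against the summed CPM of 7 choroid plexus markers (x axis) in the 32 samples, both on log axes, by region (symbol) and treatment (open saline, filled METH). The 4 NAc METH samples have 0.846 to 1.89 CPM of Lcn2 at marker sums of at most 19.7 CPM. The mean marker sum is 7.22 CPM in NAc saline and 9.97 CPM in NAc METH samples.

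Timp1 (rn6, chromosome X from 1364786 to 1369384, minus strand) encodes an inhibitor of matrix metalloproteinases. It lies inside Syn1, a synaptic vesicle gene on the plus strand, and reads were counted without regard to strand. The genes share 0 exonic bases, and their levels had r = -0.011 over the 32 samples. Neither value measures reads of unspliced Syn1 RNA that fall on Timp1 exons, and the part of such reads in Timp1 was not tested. In the NAc, Timp1 was at 0.904, 1.47, 2.09 and 3.37 CPM in saline and at 3.29, 2.84, 4.45 and 4.74 CPM in METH samples. NAc Sal 4 lay above NAc METH 1 and 2. In the CA it was at 1.53, 2.84, 2.00 and 1.399 CPM in saline and at 1.75, 4.02, 5.37 and 2.91 CPM in METH samples, where CA METH 1 lay among the saline samples. Timp1 had log2 fold changes of 0.98 (NAc, SE 0.38), -0.11 (DG, SE 0.31), 0.86 (CA, SE 0.36) and 0.67 (SVZ, SE 0.55). With the run as a covariate its NAc value was 0.17 (SE 0.35), and without SVZ METH 3 its SVZ value was 0.013 (SE 0.44). Over the 4 regions Timp1 had 0.60 (SE 0.23, edgeR quasi-likelihood FDR 0.576). Timp1 had r = 0.48 with the summed mural and fibroblast markers, and 0.53 after subtraction of group means. With the oligodendrocyte sum it had -0.29 and -0.56, and with the endothelial sum 0.018 and 0.0060. In the CA all 6 tested mural and fibroblast markers had a log2 fold change above 0 (median 0.41). The part of these cells in the values of Timp1 was not tested.

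Differences of the METH effect between regions were tested in 1 model of 8 groups. Of the 7 members, 0 passed (an FDR under 0.01), as did 0% of all genes, and DESeq2 passed 0 members, beside 23 of 24549 genes. An unadjusted p under 0.05 was reached by 0 of 7, beside 7.74% of all genes. Gfap had the lowest value of the members (edgeR quasi-likelihood FDR 0.668). Its METH effect was higher in the NAc than in the CA by 1.33 on the log2 scale (SE 0.46, edgeR quasi-likelihood FDR 1.00), and that on Stat3 was higher in the NAc than in the DG by 0.48 (SE 0.19, edgeR quasi-likelihood FDR 0.433).

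Saline samples were compared between regions in the same way, and 0 of 6 tested members passed, as did 0% of all genes, while 2 of 6 (Vim and Gfap) had an unadjusted p under 0.05, beside 26.7% of all genes. Gfap was lowest in the NAc with 254 ± 29.5 CPM, while the DG had 445 ± 157 CPM, the SVZ 446 ± 173 CPM and the CA 519 ± 173 CPM (SD, n = 4), and these last 3 differed by less than their spread. For Vim the NAc had 25.7 ± 13.1 CPM, the CA 33.0 ± 15.9 CPM, the DG 60.7 ± 33.4 CPM and the SVZ 83.8 ± 35.1 CPM (SD, n = 4), with neighbours in this order within their spread. The FDR over regions was 0.0826 for Vim and 0.156 for Gfap with edgeR's quasi-likelihood test. DESeq2 gave 0.00986 for Vim, in a range up to 0.160 over 21 alternatives, and passed 1430 of 23696 genes.

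Further genes of astrocyte reactivity were counted over the 4 regions, and 0 of them passed. At an unadjusted p under 0.05, 4.29% of all genes were higher there and 3.25% lower. Of 5 tested genes common to reactive states, 2 were higher at an unadjusted p under 0.05, Aspg (1.08, SE 0.30), an asparaginase, and S1pr3 (0.27, SE 0.10), a receptor for sphingosine 1-phosphate. Of 8 genes of the A1 type 2 were, Ggta1 (0.50, SE 0.13), a galactosyltransferase, and Psmb8 (0.37, SE 0.16), a subunit of the immunoproteasome. Of 10 tested genes of the A2 type 1 was, Cd14 (0.71, SE 0.29), a receptor for lipopolysaccharide that microglia also make. In these 3 lists 0 genes were lower at that level, and their median log2 fold changes were 0.27, 0.13 and 0.16 against 0.0085 over all genes. Microglia markers had 4 of 8 genes higher at an unadjusted p under 0.05, beside the same 4.29% of all genes, with C1qb at 0.25 (SE 0.058), C1qa at 0.20 (SE 0.068) and C1qc at 0.18 (SE 0.067), all chains of complement C1q. The sum of these 8 markers was 224 to 269.8 CPM in saline and 238 to 307 CPM in METH samples of the NAc, and its part in the results above was not tested.

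Among the members, Gfap and Stat3 had the highest correlation after group means were subtracted (r = 0.62, and 0.59 before, over the 32 samples), followed by Lcn2 and Stat3 (r = 0.50). Cd44 had at most r = 0.31 with any other member. The genes outside the list most like Gfap over the 32 samples, among 14454 compared, were Usp53 (r = 0.78), Serpinh1 (0.78), Pla2g7 (0.76), Ppib (0.73) and Cnn3 (0.73). Their log2 fold changes over the 4 regions lay between 0.19 and 0.82. Those most like the mean z score of the 7 measured members were Slc16a12, Sned1, Hspb1, Asap3 and Copz2, with r from 0.83 to 0.86. These correlations describe samples that share libraries' depth, dissections and runs.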

How the data were processed

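Total RNA of 32 samples was depleted of ribosomal RNA and sequenced as read pairs of 75 bases. The authors trimmed reads with cutadapt 2.7, mapped them to rn6 with STAR 2.5.2b and deposited, per the file headers, raw read counts per gene from featureCounts 1.6.3 (mapping quality of at least 10, no strand, Ensembl annotation release 95). The methods name a UCSC annotation. The members and lists were chosen with earlier results of these data known.

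The counts were scaled by upper quartiles, filtered with filterByExpr and fitted with edgeR 4.0.16 under R 4.3.3, with treatment as the only term within a region. The SE was taken as the size of the log2 fold change over the root of its F value. DESeq2 1.42.0 was an alternative, as were limma-voom (limma 3.58.1) with the library number as a block, TMM scaling, no filter, RUVr factors, the run, the RNA integrity number (from the study's supplement, as a covariate only), the replicate block and leaving out libraries. The run was read from the prefix of the library name, which was the word merged for CA Sal 1 and 2. The labels do not say which samples share an animal, so p-values measure the spread between samples. Samples of a group differed by more than sampling noise in all 48 pairs (mean chi-square per gene 16.5 to 192). By rule, all members were named, at most 3 genes of each list (those with the smallest p over the 4 regions), any gene of the gp130 pathway, and the 5 genes most like Gfap or the mean z score, by log2(CPM + 1) of genes with a mean above 1 CPM. The fits were tested on simulated data, where in single regions of 8 samples nearly all 4-fold but often not 2-fold changes were found. The simulation gave every region the same spread, smaller than that of the NAc, DG and SVZ samples, and changed no genes with few reads. So 0 calls in a region do not show that 2-fold changes are absent, nor that 4-fold changes are, in these 3 regions or for genes with few reads. A first version of that test demanded a recovery over both sizes together, which single regions did not reach, and the demand was then changed. A series table of the same genes was not used here.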

Additional observations from a re-analysis of the deposited data

Results flagged for a closer look

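In 3 of 56 groups of 4 samples, 1 library lay far from the other 3 for a member, and chance gives about 1 in 20 such groups. SVZ METH 3 had 3.22 CPM of Lcn2, against at most 0.672 CPM in the other SVZ METH samples, and had the highest choroid plexus marker sum of all samples. CA METH 1 had 10.2 CPM of Cd44, against at most 6.21 CPM in the other CA METH samples. CA Sal 2 had 1.69 CPM of Osmr, against at most 1.03 CPM in the other CA saline samples, and had the highest choroid plexus marker sum of the CA. The part of choroid plexus RNA in these values was not tested.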

How the results depend on the processing

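Of the alternatives to the 12 counts of members, 255 stayed within 1.5 times the reported count and 33 did not. Most of the 255 were counts past the threshold that stayed at 0. In the main fits 0% of all genes passed, so these say little about stability. Except with DESeq2, the changes fell on the single-region counts at an unadjusted p under 0.05. With DESeq2 the count past the threshold was 1 in the NAc (Gfap, beside 3 of 22589 genes) and 1 between saline regions (Vim, beside 1430 of 23696). At an unadjusted p under 0.05 the NAc count of 2 stood beside 500 of 14771 genes in either direction. It became 4 with 2 RUVr factors (beside 1366 genes), 1 with the run (278) and 5 with the RNA integrity number (1786). In 1 fit of all 32 samples it was 4, beside 435 of 16122 genes. It ran from 1 (without NAc METH 3 or METH 4) to 6 (without NAc METH 2) on leaving out a sample, and the number of all genes from 331 to 761. The DG count of 1 stood beside 1890 of 14800 genes. It became 0 with the RNA integrity number (beside 2001 genes) and without the 4 libraries of crossed numbers (1033 of 15368). It was also 0 without the 2 DG libraries with most choroid plexus RNA (1729 of 14745). On leaving out a sample it ran from 0 (without DG Sal 1, METH 2, METH 3 or METH 4) to 1, and the number of all genes from 1225 to 2070. The CA count of 1 stood beside 1046 of 14612 genes. It became 0 with the RNA integrity number (beside 769 genes) and in 1 fit of all samples (588 of 16122). On leaving out a sample it ran from 0 (without CA Sal 3, Sal 4, METH 2 or METH 3) to 2 (without CA Sal 2). The number of all genes then ran from 623 to 1639. The SVZ count of 1 stood beside 402 of 15579 genes. It became 2 with RUVr factors (beside 2432 genes) and 0 with the RNA integrity number (316). It was also 0 with the METH libraries of the same number summed (176 of 16105). On leaving out a sample it ran from 0 (without SVZ Sal 2, Sal 3, Sal 4, METH 3 or METH 4) to 2 (without SVZ Sal 1). The number of all genes then ran from 156 to 2596, the highest without SVZ Sal 1. The cause was not tested.

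With the replicate number as a block, the SVZ count was 0 (beside 167 of 15579 genes) and the NAc count 3 (beside 295 of 14771). No other count of members changed. Same-numbered samples of a region had correlated deviations in some pairs only (r from -0.78 to 0.42), so the numbers were not taken to pair samples.

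Of single fold changes, 685 alternatives kept direction and call, 1 (Gfap in the NAc with DESeq2, 1.54) newly passed and 41 turned direction, none of them of Gfap. Vim in the DG was -0.014 with the run, -0.0041 with the RNA integrity number and -0.21 without the crossed libraries. Cd44 in the DG was 0.090 with the replicate block, 0.51 with the run and 0.21 with the RNA integrity number, and in the CA 0.030 with the run. Stat3 and Timp1 in the DG were 0.051 and 0.51 with the run, and Timp1 was 0.074 without the 2 choroid-rich DG libraries. All DG values with the run rest on DG Sal 3, the only saline sample in a run with both treatments. Cd44 over the 4 regions was -0.065 without NAc METH 3 and DG Sal 3. Osmr in the CA was -0.0077 with TMM, -0.011 with DESeq2, -0.0023 without a filter, -0.0080 with RUVr factors and -0.0035 in 1 fit. On leaving out a sample, Cd44 ran from -0.33 to 0.28 in the DG and from -0.028 to 0.11 over the 4 regions, Lcn2 from -0.26 to 1.49 in the SVZ, Osmr from -0.19 to 0.24 in the CA and from -0.19 to 0.047 in the NAc, Timp1 from -0.29 to 0.074 in the DG, and Vim from -0.38 to 0.47 in the DG and from -0.60 to 0.049 in the SVZ. Lcn2 and Osmr had the fewest reads of the members, at most 70 and 36 in a library.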
